A study of Homo sapiens with 12 samples.

Results

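OE33, an epithelial cell line established from a human esophageal adenocarcinoma, was compared in 2 states by sequencing of polyadenylated RNA. The comparison set 3 libraries of untreated cells (Parental) against 3 libraries of cells that had survived repeated acidified bile salts (rABS). These are 6 of the 12 libraries of the series and were grouped by the treatment label. The comparison was chosen with earlier results of these data known. The survivors had received bile salts at 200 µM and pH 5.5, 20 minutes a day over 15 days, a model of gastroesophageal reflux. Both groups are cells of 1 cancer line grown in RPMI1640 medium with fetal bovine serum, and neither carried a short hairpin vector. The other 6 libraries, from rABS cells with a non-targeting hairpin (rABS_shCtrl) or a hairpin against the repair endonuclease APE1 (rABS_shAPE1), entered the estimate of the spread and are given beside some results. No group was mock-treated, so exposure, selection of survivors and the days in culture cannot be told apart. How long after the last exposure RNA was taken is not given in the sources used here.

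Cells that run short of amino acids, or whose endoplasmic reticulum or mitochondria are under strain, phosphorylate the translation factor eIF2alpha. This slows most translation but raises that of ATF4, a basic leucine zipper (bZIP) factor that pairs with C/EBP proteins and turns on genes of amino acid synthesis, import and tRNA charging. Entry into the cell cycle runs through another switch: cyclin-dependent kinases (CDKs) phosphorylate proteins of the retinoblastoma (RB) family, which frees E2F factors to turn on genes of nucleotide supply and DNA replication. In the esophagus, acid and bile reach the epithelium together during reflux, and repeated exposure is the setting in which Barrett metaplasia and adenocarcinoma arise.

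The 6 libraries held between 15736087 and 23010377 counts each, and the filter on low counts left 15805 genes for the test. Between rABS and Parental, 4729 genes were higher (29.9% of those tested) and 4725 lower (29.9%), 59.8% in all (edgeR quasi-likelihood test, Benjamini-Hochberg adjusted p under 0.05). With 59.8% of genes called, a list with such a share of called members matches the background, and counts below are read against these 3 shares. Likewise, the libraries of the 2 groups did not overlap for 9969 of the genes tested (63.1%), so a lack of overlap was common. Of the called genes, 393 were at least 4-fold higher and 310 at least 4-fold lower. The split into higher and lower depends on the scaling: with library totals alone, chosen after seeing the data, the median of all genes moved by 0.14 on the log2 scale, and 5727 genes were higher and 3782 lower. All 9 epithelial markers were detected in each library. Their summed levels were 14100 to 17200 CPM (counts scaled to a common library size, here by library totals alone) in Parental and 12300 to 14600 in rABS. Fibroblast and smooth muscle markers summed to 23.6 to 30.9 CPM in Parental, mostly COL1A1, and to 6.83 to 7.50 in rABS, mostly COL1A1 and ACTA2. PDGFRA, THY1, LUM and DCN were at 0 in all 6 libraries. Immune markers summed to 6.63 to 8.64 CPM in Parental and 9.09 to 13.3 in rABS (MS4A1, CD3E and CD3D at 0), and endothelial and neural markers to at most 5.85. These marker sums use library totals, whereas the levels of single genes below also use scaling factors. The factors were 0.9147 to 0.93 in Parental and 1.0099 to 1.0195 in rABS, so scaled sums would be higher in Parental relative to rABS. The groups would then lie closer for immune markers and further apart for epithelial markers. The part of these markers in the results was not tested. Transcripts of the mitochondrial genome made up 1.9 to 2.75% of counts in Parental and 2.69 to 3.65% in rABS (exact permutation test, two-sided, p = 0.2), and replication-dependent histones, whose mRNAs mostly lack poly(A) tails, 0.781 to 0.951% and 1.64 to 1.92% (p = 0.1, the smallest value that 3 against 3 libraries allow). In bulk RNA, fewer cells that express a gene and less RNA per cell cannot be told apart.

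Gene lists were assembled by role, 68 in all, and were chosen with earlier results of these data known, so their counts describe the comparison and support nothing independently. The plot of list counts gives the share of members called in each direction beside the shares over all genes.

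**Figure D1:**
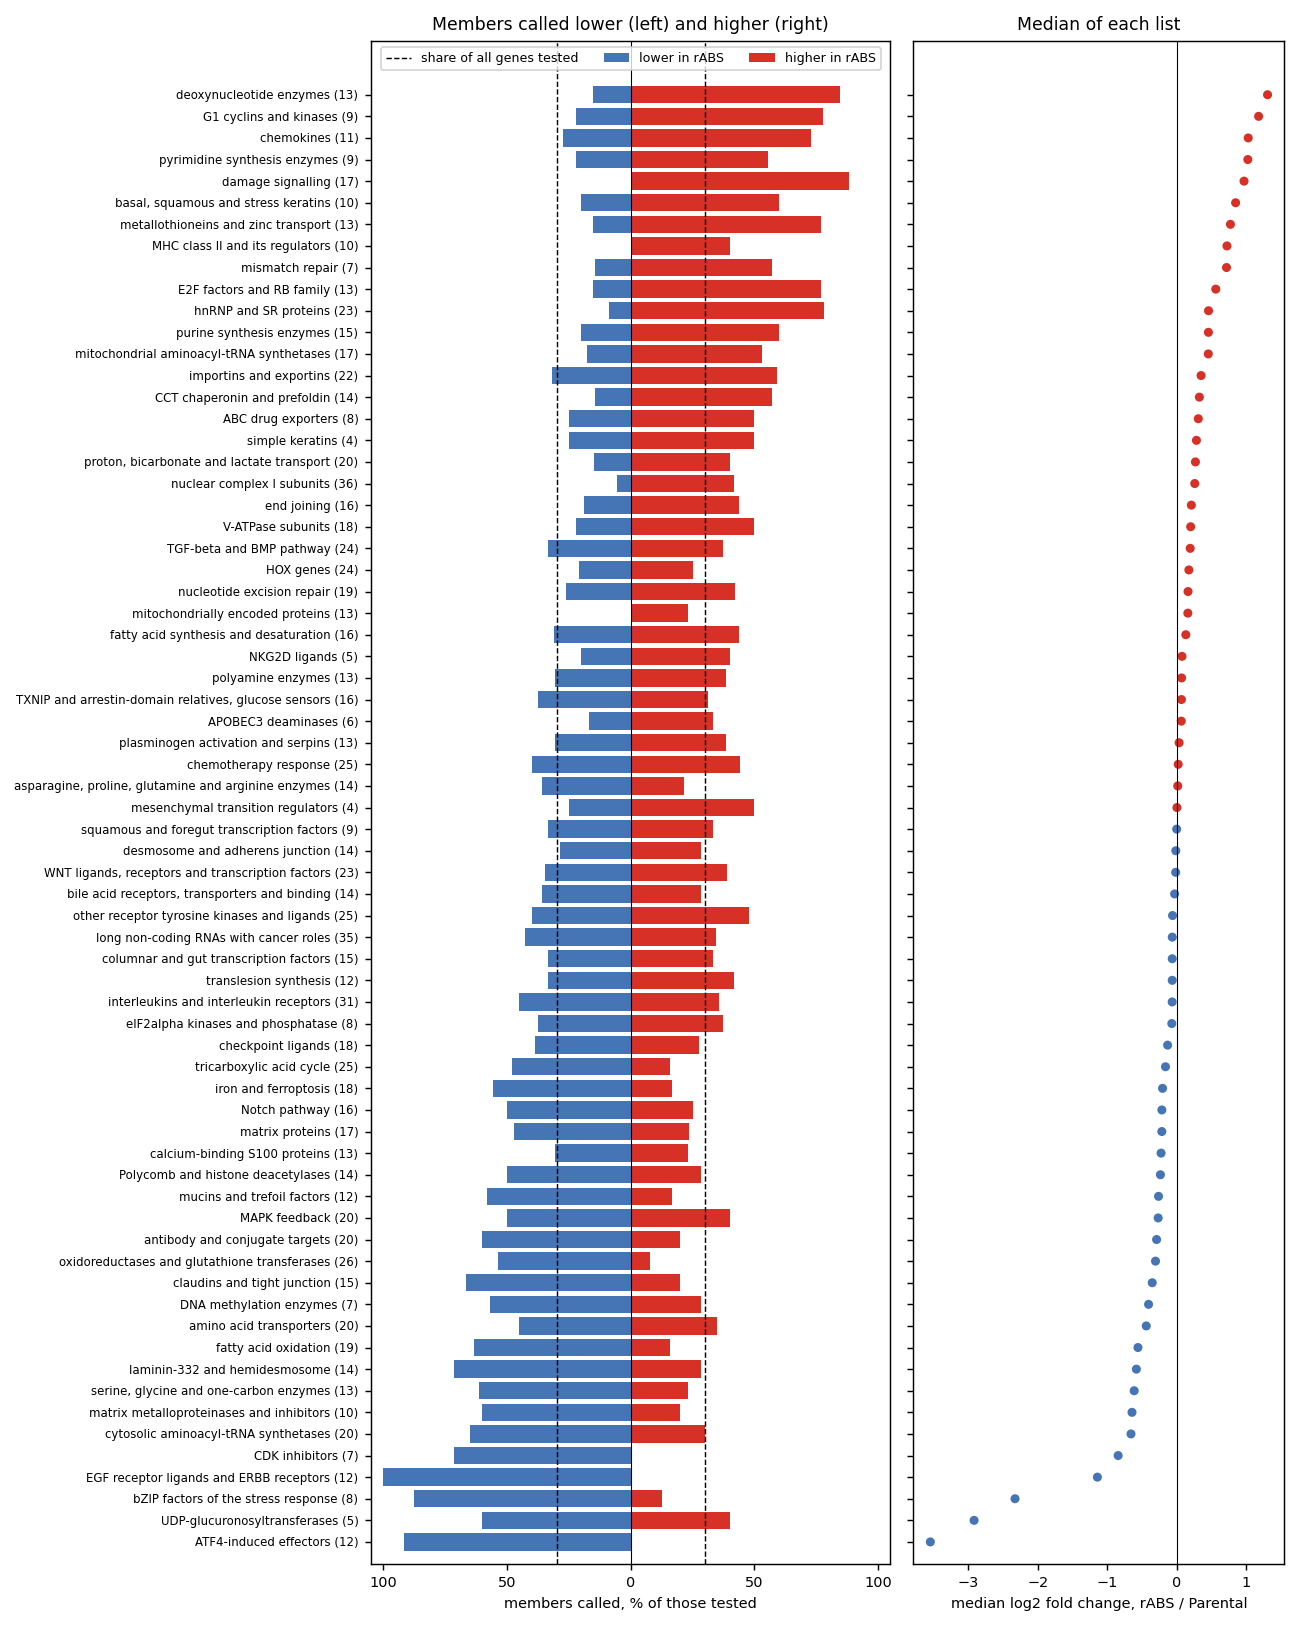
For each of 68 gene lists, with the number of members tested in parentheses, the left panel gives the percentage of tested members called lower (blue) and higher (red) in rABS, and the right panel the median log2 fold change. Dashed lines mark the 29.9% of all genes tested that were called in each direction. ATF4-induced effectors lie at the bottom with a median of -3.54, and deoxynucleotide enzymes at the top with 1.30.

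The bZIP factors and the genes they induce had 2 of the 3 lowest list medians, while the kinases that act upstream of them changed by less than 1.5-fold or were not called. Of the 4 eIF2alpha kinase genes, only EIF2AK1 and EIF2AK4 passed the test, and in opposite directions. EIF2AK1, which encodes the kinase HRI, had a mean of 219 CPM in Parental and 173 in rABS (log2 -0.34 ± 0.07, standard error), and EIF2AK4, which encodes the uncharged-tRNA sensor GCN2, had a mean of 63.4 CPM in Parental and 73.6 in rABS (log2 0.21 ± 0.07). PPP1R15A, which encodes the stress-induced phosphatase subunit GADD34 and is itself a target of the pathway, fell 3.03-fold, from a Parental level of 414 ± 5.9 to 137 ± 7.46 CPM (group means ± SD, n = 3 each). Of 8 genes in the list of bZIP factors, 7 fell and 1 rose (median log2 -2.33). The list and its median include NUPR1, which fell and is not a bZIP factor. The level of ATF4 was 696, 735 and 755 CPM in Parental and 126, 119 and 126 CPM in rABS. Every rABS library was far under every Parental library. DDIT3, which encodes the factor CHOP, had 44.2, 37 and 43.1 CPM in Parental and 3.59, 4.07 and 3.73 CPM in rABS, a fall of 10.9-fold (log2 -3.44 ± 0.14, edgeR adjusted p = 4.26e-20). JDP2 fell 10.7-fold, ATF3 4.27-fold, and the dimer partners CEBPG and CEBPB 3.21-fold and 2.03-fold. NUPR1, a small stress-induced chromatin protein gene, had 91 counts over the Parental libraries and 2 over the rABS libraries, a ratio of 47.1-fold (95% counting interval 12.7 to 394). The exception was ATF5, a relative of ATF4, with 12.3, 10.9 and 9.91 CPM in Parental and 21.5, 24.8 and 18.2 CPM in rABS; it rose 1.95-fold.

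Of 12 tested effectors, 11 fell and none rose. VLDLR, a lipoprotein receptor gene, was not called, with a mean of 12.8 CPM in Parental and 11 in rABS. CHAC1, which encodes an enzyme that degrades glutathione, had 103, 80.0 and 100.3 CPM in Parental and 7.12, 8.09 and 9.33 CPM in rABS. Its groups did not overlap, and the fall was 11.5-fold (log2 -3.52 ± 0.13, adjusted p = 6.04e-21). CTH, which encodes cystathionine gamma-lyase of cysteine synthesis, fell 3.68-fold, from 18.5 ± 3.19 to 5.02 ± 0.471 CPM, and CLIC4, a chloride intracellular channel gene, 4.4-fold.

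Within serine and one-carbon metabolism, 4 mitochondrial folate enzymes fell (MTHFD2, ALDH1L2, SHMT2 and MTHFD1L), MTHFD2L was not called, and 2 cytosolic counterparts rose. Of 13 tested, 3 rose, 8 fell and 2 did not pass the test (median log2 -0.61). PHGDH, the first enzyme of serine synthesis, had 109, 91.5 and 115 CPM in Parental and 8.88, 10.2 and 8.07 CPM in rABS, a fall of 11.6-fold (adjusted p = 5.48e-23). PSAT1, the next enzyme, fell 2.79-fold, and PSPH, the last, 1.53-fold, so the size of the fall declined along the pathway. MTHFD2, the mitochondrial folate dehydrogenase, had 337, 348 and 354 CPM in Parental and 81.1, 80.8 and 80.6 CPM in rABS. Both sets of libraries were tight and lay 4.29-fold apart. ALDH1L2, a mitochondrial folate dehydrogenase that forms CO2, fell 14.1-fold (log2 -3.82 ± 0.25, and -4.55 without rABS replicate 3), and SHMT2, the mitochondrial serine hydroxymethyltransferase, 1.77-fold. The cytosolic counterparts were higher: SHMT1 rose 2.79-fold, from 16.9 ± 0.218 to 47.2 ± 2.16 CPM, and MTHFD1, which handles folate in the cytosol, 2.09-fold, from 122 ± 4.25 to 254 ± 12.4 CPM.

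Of 14 enzymes of asparagine, proline, glutamine and arginine, 3 rose, 5 fell and 6 were not called, and with library totals alone 5 rose and 5 fell. ASNS, asparagine synthetase (chromosome 7, 97852118 to 97872542, minus strand, GRCh38), had 626, 682 and 672 CPM in Parental and 22.4, 22.5 and 20.5 CPM in rABS, log2 -4.92 ± 0.08. GOT1, the cytosolic aspartate aminotransferase, fell 3.73-fold, whereas GOT2, its mitochondrial form, rose 1.23-fold. For the last step of proline synthesis, PYCR3 rose 3.79-fold, from 22.6 ± 4.11 to 84.8 ± 6.82 CPM, and PYCR1 did not pass the test (a mean of 136 CPM in Parental and 137 in rABS).

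Amino acid transporters divided as well. Of 20 tested, 7 rose, 9 fell and 4 did not pass the test (median log2 -0.44). The carriers that fell included both chains of the large neutral transporter, SLC7A5 (2.48-fold) and its heavy chain SLC3A2 (2.09-fold), the glutamine carrier SLC1A5 (1.99-fold) and SLC38A2, an amino acid-responsive carrier, with 697, 783 and 721 CPM in Parental and 261, 260.5 and 299 CPM in rABS. No library of one group came near the other. Risen carriers included SLC7A6, another partner of SLC3A2, with 11.2, 11.6 and 13.2 CPM in Parental and 46.6, 48.1 and 48.5 CPM in rABS, and the cationic amino acid carrier SLC7A2 (2.86-fold, from 27.6 ± 2.02 to 79.1 ± 6.49 CPM). Their groups did not overlap either.

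Aminoacyl-tRNA synthetases, which load amino acids on tRNA, are given by compartment. Of 20 cytosolic synthetase genes, 13 fell, 6 rose and KARS1 was not called (median log2 -0.66). The mitochondrial set of 17 genes had 9 that rose and 3 that fell, with 5 not called (median 0.45). CARS1, for cysteine, had 247, 239 and 251 CPM in Parental and 45.8, 45.6 and 47.3 CPM in rABS, the largest fall of the family (5.31-fold, adjusted p = 1.36e-23). SARS1 fell 4.94-fold, MARS1 3.96-fold, AARS1 3.9-fold and YARS1 3.67-fold. The members that rose included both chains of the phenylalanine enzyme, FARSA (2.68-fold) and FARSB (1.66-fold), and VARS1 (1.64-fold). EARS2, the mitochondrial glutamate enzyme, had 30.2, 32 and 34.5 CPM in Parental and 85.1, 88.8 and 89.1 CPM in rABS, the largest rise among the mitochondrial genes. XPOT, which exports tRNA from the nucleus, fell 2.7-fold, from 341 ± 30.0 to 126 ± 7.13 CPM.

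The promoters of these genes were searched for the letters TGATGNAA on either strand, the C/EBP-ATF response element, in the 250 bases before and 50 after the RefSeq gene start (GRCh38.p14), using the first entry where a gene has several. This start can lie inside the GENCODE gene, which spans all of its transcripts. Promoter entries were found for 11047 of the genes tested, and 1.67% held a match. Of the 16 cytosolic synthetase genes with an entry, 6 held one. All 6 are among the 11 with an entry that fell, and none is among the 5 that rose or were not called. The 14 mitochondrial synthetase genes with an entry held 1 match, in YARS2, which was not called (a mean of 20.5 CPM in Parental and 21.8 in rABS). The 6 sites are shown because all lie in genes that fell, though other fallen genes with an entry held none. Each line gives 30 bases, 5′ to 3′ on the gene's strand, with the match in capitals.
AARS1, chr16:70289675-70289704, minus strand: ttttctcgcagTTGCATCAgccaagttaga
CARS1, chr11:3057407-3057436, minus strand: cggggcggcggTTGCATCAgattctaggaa
IARS1, chr9:92293692-92293721, minus strand: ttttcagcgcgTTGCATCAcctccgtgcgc
MARS1, chr12:57488053-57488082, plus strand: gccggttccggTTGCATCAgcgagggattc
NARS1, chr18:57621804-57621833, minus strand: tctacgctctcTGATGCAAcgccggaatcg
TARS1, chr5:33440956-33440985, plus strand: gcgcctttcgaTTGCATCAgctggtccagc
All 6 matches are the same 8 bases or their reverse complement. In CARS1, MARS1 and TARS1 the match begins within 4 bases of the RefSeq start, and in AARS1 187 bases before it. A match is a run of letters and not a measured binding site, and fallen synthetase genes without one (SARS1, GARS1, WARS1) fell as far as some with one.

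**Figure D2:**
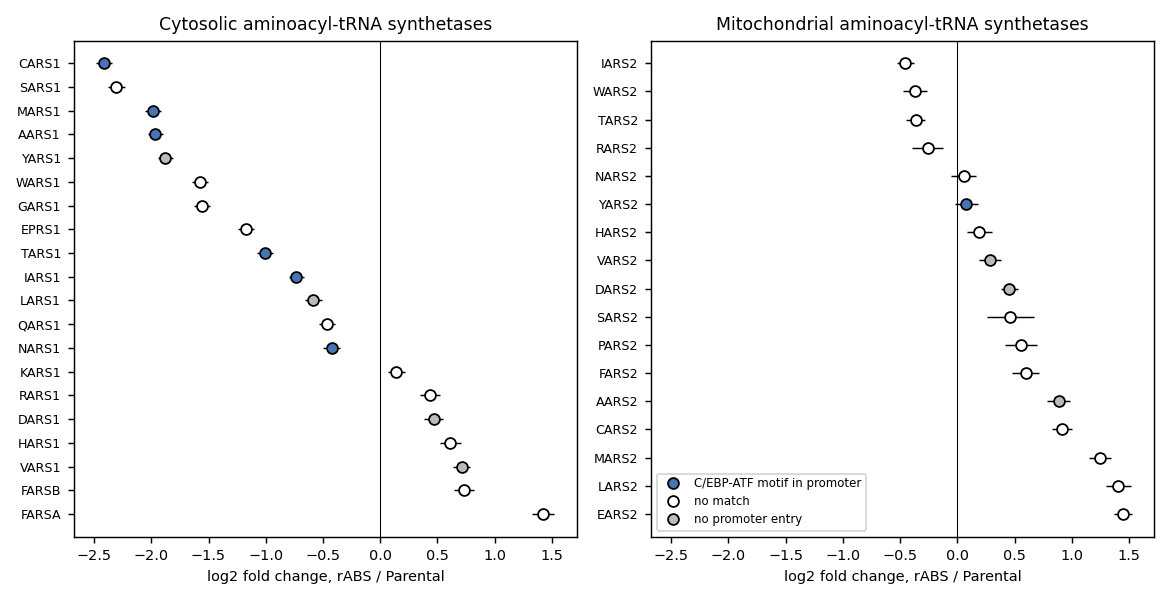
The log2 fold change of rABS over Parental (point) with its standard error (line) is given for 20 cytosolic (left) and 17 mitochondrial (right) aminoacyl-tRNA synthetase genes. Blue points have a C/EBP-ATF motif in the promoter, white points have none, and grey points have no promoter entry. The 6 blue points on the left are all below 0, and FARSA has the largest value on the left, 1.42.

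The same motif was present in the promoters of further genes of the amino acid and stress lists. Of 16 listed genes with a match, the synthetase genes included, 14 fell, YARS2 was not called, and the glutamate carrier gene SLC1A3 rose 4.4-fold. With or without a match, 11 of 12 effectors, 7 of 8 genes of the bZIP list and 13 of 20 cytosolic synthetase genes fell. So did 8 of 13 serine and one-carbon enzymes, 9 of 20 transporters, 5 of 14 genes of the asparagine list and 3 of 17 mitochondrial synthetases. Only 1 of 11 effector promoters (CHAC1) and 1 of 7 of the bZIP list (ATF3) held the motif. Beside the 6 synthetase genes, those with a match that fell were ASNS, GOT1, CHAC1, ATF3, MTHFD1L, SLC3A2, SLC38A1 and SLC7A1. Windows of 3 of them are shown because ASNS and GOT1 are the members of their list with the largest falls, and CHAC1 is the effector gene with a match.
ASNS, chr7:97872458-97872487, minus strand: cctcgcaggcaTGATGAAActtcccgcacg
CHAC1, chr15:40953251-40953280, plus strand: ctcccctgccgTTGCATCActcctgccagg
GOT1, chr10:99430804-99430833, minus strand: aattgcattggTTGCATCAttctcggcagc
The ASNS match lies 68 bases before the RefSeq start, which is base 97872408 and 134 bases inside the GENCODE 29 gene given above. Over all genes with an entry, 5.24% of 191 that were at least 4-fold lower held the motif, 3.11% of 257 that were at least 4-fold higher, and 1.67% of the 11047 tested. For reference, the 250 bases before this RefSeq start of ASNS (chr7:97872409-97872658, minus strand, GRCh38.p14), with the match in capitals, read as follows.
ASNS: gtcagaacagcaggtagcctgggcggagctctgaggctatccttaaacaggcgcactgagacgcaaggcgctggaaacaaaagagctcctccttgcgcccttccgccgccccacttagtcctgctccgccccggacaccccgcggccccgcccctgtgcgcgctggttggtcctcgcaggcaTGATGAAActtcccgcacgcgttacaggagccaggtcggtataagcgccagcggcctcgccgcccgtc

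Nucleotide supply moved the other way. Of 13 tested enzymes of deoxynucleotide supply, 11 rose and 2 fell (median log2 1.30). RRM2, the S-phase subunit of ribonucleotide reductase, had 66.6, 69.7 and 70.0 CPM in Parental and 281, 286 and 282 CPM in rABS, a rise of 4.11-fold (adjusted p = 9.28e-22). TYMS, thymidylate synthase, rose 3.12-fold, from 14.5 ± 2.4 to 45 ± 4.8 CPM, TK1, the S-phase thymidine kinase, 2.82-fold, and DCTPP1, a pyrophosphatase that clears damaged dCTP, 3.45-fold. The 2 members that fell act outside S phase: RRM2B, the p53-induced reductase subunit, fell 1.75-fold and TK2, the mitochondrial thymidine kinase, 1.67-fold. In pyrimidine synthesis CAD, DHODH, UMPS and CTPS1, which carry the path from the first step to CTP, rose 2.41-fold, 2.46-fold, 2.66-fold and 2.56-fold. UPP1, which salvages and breaks down uridine, had 252, 212 and 251 CPM in Parental and 40.0, 45.4 and 40.0 CPM in rABS and fell 5.69-fold. In purine synthesis 9 of 15 rose, with PRPS1, which makes the ribose donor PRPP, up 4.26-fold, from 13.8 ± 0.987 to 59 ± 1.72 CPM.

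Genes that open the cell cycle mostly rose and their inhibitors mostly fell. Of 9 G1 cyclin and kinase genes, 7 rose and 2 fell (1 fallen with library totals alone). CCNE2, cyclin E2, had 0.484, 0.561 and 0.767 CPM in Parental and 7.00, 5.06 and 6.91 CPM in rABS, a rise of 10.3-fold (adjusted p = 3.15e-12). CDC25A, the phosphatase that activates CDK2, had 5.81, 5.05 and 5.9 CPM in Parental and 30.6, 38.5 and 31.5 CPM in rABS. Both were low in every Parental library. CDK7, of the CDK-activating kinase, fell 1.92-fold. Of 7 CDK inhibitor genes, 5 fell and none rose. CDKN2B, which encodes p15, an inhibitor of CDK4 and CDK6, had 112, 106 and 113 CPM in Parental and 27.2, 27 and 23.1 CPM in rABS and fell 4.28-fold. CDKN2A, its neighbour, fell 2.01-fold, CDKN1B 1.79-fold and CDKN1A 1.59-fold.

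In the E2F and RB families the activators E2F1 and E2F2 were among the largest rises, and 10 of 13 rose in all. E2F1 had 17.3, 15.8 and 18.4 CPM in Parental and 84.3, 96.2 and 86.8 CPM in rABS and E2F2 3.25, 2.48 and 2.3 CPM in Parental and 20.5, 22.6 and 23.4 CPM in rABS, rises of 5.2-fold and 8.36-fold. RBL1, the RB relative p107, rose 5.37-fold while RBL2, the relative p130 of resting cells, fell 1.97-fold, from 185 ± 11.5 to 94.1 ± 5.56 CPM. RB1 rose 1.31-fold. The motif E2F, searched as TTTCCCGC or TTTGGCGC on either strand, was found in 3.57% of all promoters with an entry, in 8.17% of those of genes at least 4-fold higher and in 1.57% of those at least 4-fold lower. It was found in 4 of the 11 E2F and RB family genes with an entry (E2F1, E2F2, E2F3 and RBL1). Of deoxynucleotide enzyme genes with an entry it was in 2 of 11, and of G1 cyclin and kinase genes in 1 of 6. Of damage signalling genes it was in 1 of 15, and of mismatch repair genes in 2 of 5. Also searched were TGANTCA (AP-1), GAANNTTC (heat shock element), ATCAAAG (TCF/LEF), TGACNNNGC (antioxidant response element) and CACGTG (E-box). Among genes at least 4-fold higher they were found in 11.3%, 8.95%, 3.11%, 15.2% and 9.73%. Over all promoters the shares were 4.89%, 4.63%, 1.52%, 15.3% and 10.1%, and at least 4-fold lower 7.33%, 5.76%, 3.14%, 14.7% and 5.24%. A raised share among the risen genes was thus not particular to E2F. Windows of 6 risen genes with an E2F match are shown to compare the letters, and were chosen after their values were seen.
E2F1, chr20:33686387-33686416, minus strand: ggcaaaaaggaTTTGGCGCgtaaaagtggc
E2F2, chr1:23531257-23531286, minus strand: gcggcacgacgTTTGGCGCtaaaaaaaaaa
RBL1, chr20:37095995-37096024, minus strand: ttttcgcgcgcTTTGGCGCaggtggttgtg
CDC25A, chr3:48188443-48188472, minus strand: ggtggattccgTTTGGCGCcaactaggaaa
CLSPN, chr1:35769965-35769994, minus strand: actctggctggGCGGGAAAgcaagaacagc
MSH6, chr2:47783137-47783166, plus strand: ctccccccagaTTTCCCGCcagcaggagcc
The first 4 share the form TTTGGCGC, and CLSPN and MSH6 hold the other form on opposite strands. All 6 matches begin within 44 bases of the RefSeq start.

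**Figure D3:**
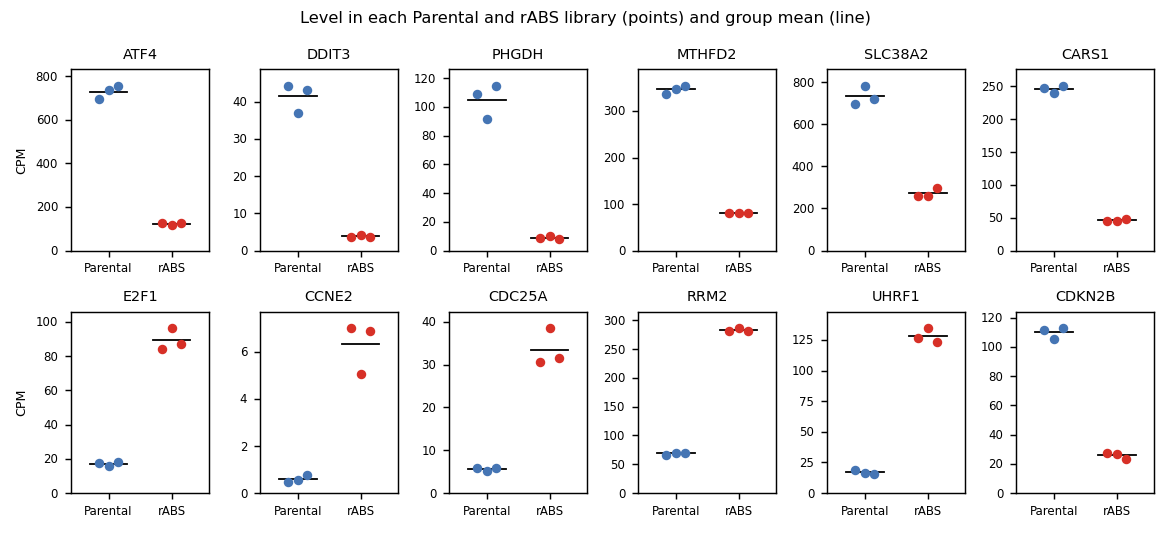
Levels in CPM are given for 12 genes in the 3 Parental (blue) and 3 rABS (red) libraries, with the group mean as a line and each axis from 0. The genes were chosen after their values were seen. Genes of the stress response (ATF4 to CARS1) were lower in every rABS library, and E2F1, CCNE2, CDC25A, RRM2 and UHRF1 were higher in every rABS library.

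Checkpoint genes rose almost throughout, and repair genes less evenly. Of 17 damage signalling genes, 15 rose, none fell and CHEK2 and HUS1 were not called (median log2 0.97). CLSPN, which encodes the adaptor claspin that hands the signal from the kinase ATR to CHK1, had 7.54, 8.66 and 7.31 CPM in Parental and 51.5, 49 and 51.2 CPM in rABS and rose 6.42-fold. CHEK1, which encodes CHK1, rose 3.47-fold, H2AX, the histone marked at breaks, 2.62-fold, and TIMELESS, a fork protection gene, 2.48-fold. In mismatch repair MSH6, of mismatch recognition, rose 2.44-fold, and PMS2, which acts after recognition, fell 1.44-fold. Nucleotide excision repair, which removes bulky adducts, went both ways, with 8 risen, 5 fallen and 6 not called of 19 (2 fallen with library totals alone or without rABS replicate 2, and 3 without Parental replicate 1 or Parental replicate 2): DDB1 rose 1.82-fold and the nuclease genes ERCC5 and ERCC1 fell 1.67-fold and 1.44-fold. End joining went both ways. POLQ, of the error-prone pathway, rose 2.48-fold, and the nuclease gene DCLRE1C, of the classical pathway, fell 2.00-fold. RAD18, which starts translesion synthesis, rose 2.43-fold, and of its 12 listed genes 5 rose and 4 fell. The fallen were 1 without Parental replicate 2 or rABS replicate 2, 2 without Parental replicate 3 or rABS replicate 1, and 0 when libraries were scaled by totals alone. APOBEC3B, a cytidine deaminase gene linked to cancer mutations, had a mean of 41.5 CPM in Parental and 61.4 in rABS and rose 1.48-fold.

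Of 7 DNA methylation genes, 2 rose, 4 fell and TET1 was not called (a mean of 0.357 CPM in Parental and 0.678 in rABS). The 2 that rose act in maintenance, and the 4 that fell act in de novo methylation or demethylation. UHRF1, which guides DNMT1 to newly copied DNA, had 18.8, 16.5 and 15.8 CPM in Parental and 127, 134 and 124 CPM in rABS, a rise of 7.56-fold (adjusted p = 1.73e-23). DNMT1 rose 2.51-fold, from 99.2 ± 2.87 to 249 ± 8.32 CPM, while DNMT3A, DNMT3B, TET2 and TET3 fell 1.32-fold, 1.48-fold, 1.45-fold and 2.19-fold. EZH2, the Polycomb methyltransferase of dividing cells, rose 3.25-fold, and EZH1, its counterpart in resting cells, fell 1.82-fold. HDAC5 fell 2.37-fold. Of 23 splicing RNA-binding protein genes, 18 rose and 2 fell (1 fallen with library totals alone), with SRSF2 up 3.06-fold, HNRNPAB 2.71-fold and SRSF1 2.68-fold. The CCT chaperonin, which folds actin and tubulin, rose in 6 of its 8 subunit genes, between 1.31-fold (CCT7) and 1.87-fold (CCT5), with CCT4 and CCT8 not called. Of 22 importin and exportin genes, 13 rose and 7 fell, with IPO9 up 2.5-fold and TNPO1 down 2.63-fold.

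The EGF receptor system fell. All 12 tested ligand, receptor and feedback genes fell (median log2 -1.14), against 29.9% of all genes, with NRG4 the weakest call (a mean of 2.23 CPM in Parental and 1.31 in rABS). It lost the call with library totals alone (edgeR adjusted p = 0.0575), without a count filter (0.0673), without Parental replicate 3 (0.0753) and without rABS replicate 3 (0.0909). EREG, epiregulin, had 1344, 1641 and 1364 CPM in Parental and 306, 282 and 343 CPM in rABS, and AREG, amphiregulin, 377, 339 and 371 CPM in Parental and 76.6, 80.5 and 65.1 CPM in rABS. These were the ligand genes with the most counts, and each was several-fold lower in all rABS libraries. HBEGF fell 4.29-fold and EPGN, epigen, 20.4-fold, from 3.48 ± 0.646 to 0.168 ± 0.0637 CPM. TGFA fell least among the ligands (1.35-fold). Of the receptors, ERBB3 fell 2.31-fold, EGFR 1.61-fold and ERBB2 1.26-fold, from 2162 ± 117 to 1709 ± 32.1 CPM. ERRFI1, the feedback inhibitor MIG6, fell 3.42-fold. Feedback genes of the MAP kinase pathway below the receptors went both ways, with 8 risen and 10 fallen of 20: DUSP5 fell 8.06-fold and EPHA2 2.45-fold, while ETV1 rose 2.19-fold and SPRY1 1.75-fold.

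Of 25 tested genes of other receptor tyrosine kinases, their ligands and IGF-binding proteins, 12 rose, 10 fell and 3 were not called. INSR, the insulin receptor, was close to absent in Parental, with 0, 0 and 0.295 CPM in Parental and 5.24, 3.72 and 4.79 CPM in rABS. The log2 rise was 5.50 ± 0.44, but it rests on few Parental counts and was 9.44 without Parental replicate 3 and 4.79 without Parental replicate 2. IGF1R did not pass the test (a mean of 162 CPM in Parental and 155 in rABS). IGFBP3, a secreted IGF-binding protein, had 3300.5, 3182 and 3252 CPM in Parental and 1002, 1039 and 972 CPM in rABS and fell 3.23-fold, IGFBP2 fell 4.97-fold, and IGFBP4 rose 2.87-fold. SLC2A3, the glucose carrier GLUT3, was also near 0 in Parental, at 0.208, 0.0936 and 0 CPM in Parental and 2.33, 1.75 and 2.62 CPM in rABS (log2 4.47 ± 0.43, and 5.28 without Parental replicate 1). In the same libraries SLC2A1, GLUT1, rose 1.22-fold, from 369 ± 15.4 to 451 ± 7.86 CPM. Among receptor kinases of the TAM family, GAS6, their ligand, had 2.08, 0.842 and 1.59 CPM in Parental and 35.9, 43.1 and 33.5 CPM in rABS, TYRO3 rose 1.63-fold, and AXL and MERTK fell 1.55-fold and 2.37-fold. MST1R rose 1.65-fold, and MET fell 1.49-fold, from 8483 ± 748 to 5712 ± 383 CPM.

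Secreted signals of other pathways moved individually. Of 23 WNT ligand, receptor and transcription factor genes, 9 rose and 8 fell. LEF1, the WNT transcription factor, had 0.208, 0.0468 and 0 CPM in Parental and 3.64, 4.19 and 3.78 CPM in rABS, a log2 rise of 5.55 ± 0.49, and of 6.91 without Parental replicate 1. SP5, a zinc finger factor that WNT signalling induces (chromosome 2, 170715351 to 170718078, plus strand, GRCh38), had no count in Parental and 125 in rABS, which with a floor of 3 counts for the Parental group is at least 40.3-fold higher. TCF7 rose 2.24-fold and TCF7L2 fell 1.28-fold. The ligands WNT9A and WNT10A rose 6.27-fold and 2.00-fold, and WNT7B, with 584, 501 and 561 CPM in Parental and 156, 166 and 148 CPM in rABS, and WNT4 fell 3.5-fold and 7.66-fold. In the Notch pathway 8 of 16 fell and 4 rose (5 and 5 with library totals alone): the ligand gene DLL4 fell 5.33-fold and JAG1 1.97-fold, JAG2 rose 2.52-fold, and the target HES1 fell 1.73-fold. BMP4, a ligand that patterns columnar epithelium, rose 4.22-fold, from 11 ± 1.79 to 46.1 ± 1.85 CPM, SMAD3, a mediator of TGF-beta signals, fell 1.7-fold, and ID1 fell 1.76-fold while ID3 rose 2.23-fold.

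Cell surface proteolysis genes went both ways. Of 13 tested genes of plasminogen activation and serpins, 5 rose and 4 fell, and of 10 matrix metalloproteinases and inhibitors, 2 rose and 6 fell. The plasminogen activator PLAU, urokinase, had 1737, 1675 and 1902 CPM in Parental and 426, 483 and 457 CPM in rABS, a fall of 3.89-fold (adjusted p = 8.58e-21). SERPINB2 (PAI-2), an inhibitor of urokinase, had 0.415, 0.234 and 0.472 CPM in Parental and 21.6, 25.1 and 21 CPM in rABS, a rise of 61.4-fold. The receptor PLAUR was not called (a mean of 149 CPM in Parental and 139 in rABS), and PLAT, the other plasminogen activator, rose 1.55-fold. MMP7, matrilysin, had 226, 249 and 249 CPM in Parental and 1279, 1330.5 and 1342 CPM in rABS and rose 5.46-fold, whereas MMP1 and MMP15 fell 2.1-fold and 1.44-fold. Kallikrein-related peptidases, a family examined after KLK5 and KLK6 had stood out, rose in 6 of 7 tested members with none lower. KLK5, a skin-type trypsin-like protease, had 6.44, 6.36 and 7.37 CPM in Parental and 87.1, 92.9 and 86.3 CPM in rABS, KLK6 335, 313 and 362 CPM in Parental and 1567, 1645 and 1571 CPM in rABS, and KLK10 22.8, 23.2 and 27.2 CPM in Parental and 147, 155 and 135 CPM in rABS. Each was at least several-fold higher in all rABS libraries.

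Anchorage genes fell more often than they rose. Of 14 laminin-332 and hemidesmosome genes, 10 fell and 4 rose: the integrin genes ITGA3 and ITGB4 fell 2.73-fold and 2.06-fold and the laminin chain LAMB3 fell 2.32-fold, while COL17A1, collagen XVII of the hemidesmosome, rose 1.92-fold. ITGA3 had 1943, 1752 and 1951 CPM in Parental and 703, 715 and 652 CPM in rABS. Of 15 tight junction genes, 10 fell and 3 rose. CLDN12, CLDN1 and TJP3 fell 2.3-fold, 2.47-fold and 2.38-fold. CLDN18, the gastric claudin, rose from a trace, at 0, 0.187 and 0 CPM in Parental and 1.2, 1.92 and 1.66 CPM in rABS (log2 4.30 ± 0.65, and 7.88 without Parental replicate 2), and CLDN2, the leaky claudin of gut crypts, had 1 count in Parental and 36 in rABS, a ratio of 34.8-fold (95% counting interval 5.86 to 1410), with a fitted log2 change of 4.69, and of 6.60 without Parental replicate 2. Desmosome and adherens genes were close to balanced (4 risen, 4 fallen, 6 not called), with DSP, JUP and EPCAM not called. In the matrix list TNC, tenascin C, rose 3.58-fold, FN1 1.46-fold, and LAMA5 and LAMB1 fell 1.91-fold and 1.69-fold.

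Of 4 tested keratin genes of simple epithelium, 2 rose and 1 fell, and of 10 of basal, squamous and stressed epithelium, 6 rose and 2 fell. KRT8 had 959, 764 and 915 CPM in Parental and 1909.8, 2125 and 1820.4 CPM in rABS and rose 2.22-fold, its partner KRT18 rose 1.35-fold, KRT19 fell 1.49-fold, from 11736 ± 1618 to 7860.4 ± 902 CPM, and KRT7 was not called. KRT6A, KRT6B and KRT16, keratins of wounded and hyperproliferative epithelium, were all higher: KRT6A had 3 counts in Parental and 461 in rABS, a ratio of 149-fold (95% counting interval 50.5 to 723), KRT6B had 1 and 65, a ratio of 62.8-fold (95% counting interval 10.9 to 2520), and KRT16 rose 3.9-fold, from 1.53 ± 0.367 to 6.03 ± 0.73 CPM. The fitted log2 change of KRT6A, 7.05, was 10.34 without Parental replicate 1 and 6.37 without Parental replicate 2, and that of KRT6B, 5.54, was 7.46 without Parental replicate 2. KRT6A and KRT6B share much of their sequence, so reads may be split between them. Mucins fell in 7 of 12 tested mucin and trefoil genes and rose in 2. MUC5AC, the gel-forming mucin of gastric surface cells, had 588, 569 and 505 CPM in Parental and 155, 125 and 151 CPM in rABS and fell 3.86-fold. MUC4 fell 2.2-fold. MUC16, which carries the antigen CA125, had 1.59, 2.39 and 2.36 CPM in Parental and 23.9, 20.5 and 23.3 CPM in rABS, a rise of 10.5-fold, and AGR2, which helps fold mucins, rose 2.75-fold.

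Lineage factors of gut and squamous epithelium split evenly, with 5 risen and 5 fallen of 15 and 3 risen and 3 fallen of 9 (7 and 5 for the gut factors with library totals alone). ELF3, an epithelial ETS factor, fell 2.81-fold, from 853 ± 60.6 to 303 ± 29.6 CPM, and GATA6, a gastric and intestinal factor, 2.28-fold. CDX2, the intestinal factor of Barrett metaplasia, had 12.6, 10.4 and 16 CPM in Parental and 21.8, 20.1 and 19.4 CPM in rABS, a rise of 1.57-fold. FOXA1 and EHF were not called (a mean of 155 CPM in Parental and 156 in rABS for FOXA1, and a mean of 369 CPM in Parental and 376 in rABS for EHF), though both were called higher with library totals alone. SOX2, a factor of squamous and foregut epithelium, rose 1.97-fold, from 3.86 ± 0.214 to 7.58 ± 0.444 CPM. Of 10 mesenchymal regulators and markers, 6 were too low to be tested, and of the other 4 FN1 rose 1.46-fold, SNAI2 fell 1.53-fold, and ZEB1 was not called. SNAI1, with a mean of 5.69 CPM in Parental and 8.13 in rABS, was called higher but lost the call without Parental replicate 3 (log2 0.39) or without rABS replicate 2 (log2 0.33). Of 24 HOX genes, 13 were not called, 6 rose and 5 fell (11 risen and 4 fallen with library totals alone), with HOXB9 down 2.8-fold.

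Among genes that handle bile and foreign compounds, oxidoreductases fell more often than they rose, and the other lists went both ways. UDP-glucuronosyltransferases conjugate bile acids and drugs, and of 5 tested 2 rose and 3 fell. UGT2B7 had 0.415, 0.328 and 0.649 CPM in Parental and 12.8, 14.4 and 11.6 CPM in rABS. UGT1A6 fell 12.6-fold, from 14.3 ± 2.99 to 1.12 ± 0.245 CPM, and UGT1A10 and UGT1A1, which share its last exons and may share its reads, fell as well. Of 26 oxidoreductase and glutathione transferase genes, 14 fell and 2 rose (4 risen with library totals alone, and 1 without Parental replicate 2, rABS replicate 1 or rABS replicate 2): CYP1B1 fell 5.01-fold, CYP4F11 5.02-fold and ALDH3B1 3.05-fold, and ALDH1A3, which makes retinoic acid, had 1237, 1188 and 1220.2 CPM in Parental and 567, 577 and 536 CPM in rABS. Bile acid receptors and carriers were balanced, with 4 risen and 5 fallen of 14. ABCB11, the bile salt export pump, fell 1.83-fold, ABCC2 and ABCC3, exporters of conjugated bile acids, fell 2.65-fold and 2.51-fold, and ABCC4 rose 2.23-fold. The bile acid receptor gene NR1H4 was too low to be tested, and GPBAR1, the membrane receptor, was not called (a mean of 0.645 CPM in Parental and 0.463 in rABS).

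In pH control, the anion exchangers SLC4A2 and SLC26A6 rose 1.85-fold and 2.01-fold. SLC4A2 had 157, 136 and 153 CPM in Parental and 275, 292 and 257 CPM in rABS. CA2, carbonic anhydrase II, rose 3.1-fold, from 2.12 ± 0.355 to 6.64 ± 0.976 CPM. Of 20 genes of proton, bicarbonate and lactate transport, 8 rose and 3 fell. Of 18 V-ATPase genes, which acidify lysosomes, 9 rose and 4 fell, all by less than 2-fold except ATP6V0A4, which rose 4.73-fold, from 0.159 ± 0.11 to 0.744 ± 0.352 CPM.

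Metal handling changed on both sides. Of 13 metallothionein and zinc carrier genes, 10 rose and 2 fell (1 fallen with library totals alone). MT2A, the main metallothionein, had 134, 119 and 139.8 CPM in Parental and 257, 293 and 254 CPM in rABS, MT1E rose 4.86-fold, and the zinc importer SLC39A8 rose 3.46-fold. Metallothionein genes are close copies, so reads may be divided among them. For iron, the uptake receptor rose and the ferritin heavy chain fell: TFRC, the transferrin receptor, had 68.4, 73.5 and 67.2 CPM in Parental and 261, 254 and 275 CPM in rABS, and FTH1, ferritin heavy chain, 3297, 2824 and 3343 CPM in Parental and 1443, 1587 and 1511 CPM in rABS. TFRC rose 3.77-fold, FTH1 fell 2.08-fold, the exporter SLC40A1 fell 2.76-fold, and FTL was not called. GPX4, the lipid peroxide reductase that blocks ferroptosis, fell 1.8-fold.

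Among energy genes, those of fatty acid oxidation mostly fell, and those of synthesis went both ways. Of 19 fatty acid oxidation genes, 12 fell and 3 rose, and of 16 synthesis and desaturation genes, 7 rose and 5 fell. PDK4, a kinase that inhibits pyruvate dehydrogenase when fat is burned, had 42.3, 43.3 and 40.9 CPM in Parental and 3.02, 3.49 and 4.13 CPM in rABS, a fall of 11.8-fold (adjusted p = 2.11e-21). ECH1 fell 2.56-fold, HADHA 2.00-fold and the regulator PPARA 1.81-fold. FASN, fatty acid synthase, had 505, 399 and 449.7 CPM in Parental and 957, 991 and 929.8 CPM in rABS and rose 2.13-fold. In and around the tricarboxylic acid cycle 12 of 25 fell (7 with library totals alone), with cytosolic IDH1 down 2.78-fold. TXNIP, the glucose-responsive inhibitor of glucose uptake, had 614, 688 and 667 CPM in Parental and 194, 186 and 202 CPM in rABS, a fall of 3.38-fold, and MLXIPL, the glucose sensor ChREBP that induces it, fell 3.7-fold. Of 13 proteins encoded in mitochondrial DNA, 3 rose and 10 were not called, and of 36 nuclear complex I genes 15 rose and 2 fell (4 fallen without Parental replicate 2 or without rABS replicate 2, and 1 with library totals alone), with NDUFB10 up 2.28-fold. SRM and AMD1, of polyamine synthesis, rose 4.25-fold and 2.16-fold, and SMOX and SAT1, of polyamine breakdown, fell 2.25-fold and 1.69-fold.

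Immune surface genes went both ways. CD47, the signal that stops phagocytosis, had 40.3, 55.9 and 46.3 CPM in Parental and 129, 127 and 140.1 CPM in rABS and rose 2.76-fold. CD274, which encodes PD-L1, fell 1.69-fold, from 29.3 ± 2.61 to 17.3 ± 2.18 CPM, and HLA-E 1.84-fold. HHLA2, a B7-family gene, had 1 count in Parental and 80 in rABS, a ratio of 77.4-fold (95% counting interval 13.5 to 3090), with a fitted log2 change of 5.84, and of 7.79 without Parental replicate 3. CEACAM1 fell 5.35-fold. Among ligands of the receptor NKG2D, MICB rose 2.43-fold and ULBP3 1.8-fold, ULBP1 fell, and MICA and ULBP2 were not called. In MHC class II, HLA-DRA and HLA-DRB1 rose from traces (0.308 ± 0.107 to 2.63 ± 0.488 CPM and 0.132 ± 0.0124 to 1.81 ± 0.48 CPM) beside CD74, with 5.54, 6.92 and 5.54 CPM in Parental and 56.2, 55.2 and 53.4 CPM in rABS, while their activator CIITA was not called (a mean of 2.21 CPM in Parental and 2.26 in rABS). HLA genes have close copies, and reads may be split among them.

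Of 11 chemokine genes, 8 rose and 3 fell, whereas interleukin and receptor genes fell in 14 of 31 and rose in 11 (13 and 13 with library totals alone). Among the 8, CXCL5 rests on 6 counts in rABS and 0 in Parental. It lost the call without a count filter (edgeR adjusted p = 0.0558), with the replicate number as a block (0.0539) and with any 1 library left out. CXCL1 had 18, 15.9 and 15 CPM in Parental and 119.9, 127 and 115 CPM in rABS, CXCL3 rose 3.97-fold, CXCL6 5.73-fold and CXCL8 2.04-fold, and CXCL2 fell 1.34-fold. IL1A had 204, 248 and 232 CPM in Parental and 16.7, 14.2 and 19.4 CPM in rABS and IL1B 89.3, 96.7 and 98.1 CPM in Parental and 16.7, 10.9 and 14.2 CPM in rABS. The decoy receptor gene of this cytokine pair, IL1R2, rose 7.59-fold, and its signalling receptor gene IL1R1 fell 2.72-fold. LIF fell 4.05-fold and its receptor LIFR 2.26-fold. IL17RB rose 5.52-fold, and TNFAIP3, a feedback inhibitor of NF-kB, 1.89-fold. S100P, an S100 calcium-binding protein gene of gastrointestinal cancers, fell 5.61-fold, from 90.7 ± 9.72 to 16.2 ± 2.45 CPM.

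Of 20 genes that encode targets of therapeutic antibodies, 12 fell and 4 rose, and several are also counted in the lists above. CEACAM6 and CEACAM5 fell 2.87-fold and 3.59-fold, NECTIN4 fell 2.5-fold and VEGFA 4.85-fold. Genes that bear on the response to fluoropyrimidines went both ways: the drug's target TYMS rose, while DPYD, which degrades the drug, had 18.8, 20.2 and 19.1 CPM in Parental and 4.56, 3.02 and 3.78 CPM in rABS, and TYMP and UPP1, which activate its precursors, fell 3.46-fold and 5.69-fold. TOP1, the target of irinotecan, fell 2.21-fold, from 479.5 ± 35.3 to 217 ± 0.926 CPM. SLFN11, which blocks stressed replication forks and marks sensitivity to DNA-damaging drugs, had 1.87, 0.889 and 0.708 CPM in Parental and 26.5, 24.9 and 26.6 CPM in rABS, a rise of 23.4-fold (adjusted p = 9.73e-20). ABCB1 was too low to be tested, and ABCG2, another exporter, fell 1.3-fold. No drug response was measured here.

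Beyond these lists, the 25 called genes with the largest rises and falls at 5 CPM or more were examined. Among the rises, FAM111B, a protease gene, had 3.53, 3.18 and 3.42 CPM in Parental and 77.4, 76.3 and 83.6 CPM in rABS, and MCM10, which starts replication forks, 4.64, 6.74 and 5.19 CPM in Parental and 70.0, 69.4 and 74.9 CPM in rABS. MYL9, a myosin light chain gene, rose 12.1-fold, MAOB, monoamine oxidase B, 14.4-fold, TNFRSF19, a receptor of the TNF family, 10.0-fold, and NXN, nucleoredoxin, 10.1-fold. Among the falls, CD22, a lectin gene best known from B cells, had 143, 136 and 139 CPM in Parental and 11.7, 10.5 and 8.92 CPM in rABS. The B cell marker MS4A1 had no count in any of the 6 libraries. PADI3, a peptidylarginine deiminase gene, had 53.7, 49.9 and 59.5 CPM in Parental and 2.62, 2.5 and 2.57 CPM in rABS. TCP11L2 fell 15.1-fold, ACSM3, a medium-chain acyl-CoA synthetase gene, 17.3-fold, CEACAM7 15.9-fold (log2 -3.99 ± 0.41, and -5.07 without rABS replicate 1), and MB, myoglobin, 14.1-fold. None of these groups of libraries overlapped, which was part of the rule.

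By change in mean CPM, the 10 largest gains summed to 15400 CPM, and the 10 largest losses fell by 41510 CPM. EEF1A1, the elongation factor that brings tRNA to the ribosome, fell 1.93-fold, from 19537 ± 1190.2 to 10123 ± 319.7 CPM. HMGA1, a chromatin protein gene of proliferating tumours, fell 2.19-fold, from 14567 ± 763 to 6661 ± 63.1 CPM, EIF1, a start codon selection factor gene, 2.97-fold, and AKAP12, a scaffold gene, 3.91-fold. The gains were led by MT-CO1 (7858 ± 1188 to 11874 ± 1675 CPM), ACTB (7567 ± 317 to 10212 ± 57.5 CPM) and TUBB (939.9 ± 11.4 to 2414 ± 45.1 CPM). These CPM are relative to the scaled library size, so gains and losses depend on the scaling and need not cancel. Over all genes tested, gains summed to 149550 CPM and losses to -250480 CPM. They are relative levels and not numbers of molecules.

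Long non-coding RNA genes with known roles in cancer split into 12 risen and 15 fallen of 35 (13 and 13 with library totals alone). LINC02474, which is not in that list and was named for its fold and its absence in Parental, had no count there. It had 399 in rABS, at least 129-fold more with a group floor of 3 counts. H19, an imprinted RNA, had 3189.9, 2924 and 2951 CPM in Parental and 1244, 1138 and 1170.2 CPM in rABS and fell 2.55-fold. NEAT1, the scaffold of paraspeckles, fell 2.89-fold, and MALAT1 1.59-fold. UCA1 rose 1.78-fold, from 177 ± 5.57 to 316 ± 6.19 CPM, MIR210HG, host of a hypoxia-induced microRNA, 5.6-fold, and HCP5 4.12-fold. No source used here gives the strand setting of the counting, so reads from overlapping genes on opposite strands cannot be told apart.

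The transduced libraries derive from rABS cells, and their values are set beside the comparison without a test, since the comparisons would share libraries. PLAU had 446, 428 and 463 CPM in rABS_shCtrl and 455, 529.9 and 449 in rABS_shAPE1, against 456 CPM in rABS and 1771 in Parental on average. MMP7 had 1187 and 1099 CPM on average, against 1317 in rABS and 241 in Parental. KLK5 had 29.2, 31.9 and 34.5 CPM in rABS_shCtrl and 12.3, 12.9 and 11.4 in rABS_shAPE1, all between the Parental and the rABS libraries. KRT6A had 0.448 and 0.313 CPM on average, against 8.46 in rABS and 0.0692 in Parental. MUC16 was higher still, at 32.5, 33 and 40.5 CPM in rABS_shCtrl and 48.6, 38.9 and 37.2 in rABS_shAPE1. TFRC had 281, 261 and 264 CPM in rABS_shCtrl and 440.4, 427 and 451 in rABS_shAPE1, against 263 in rABS on average. ASNS was at 89, 78.7 and 85.8 CPM in rABS_shCtrl and 36.6, 38.7 and 38.6 in rABS_shAPE1, so each of these 6 libraries lay above rABS and far below Parental.

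**Figure D4:**
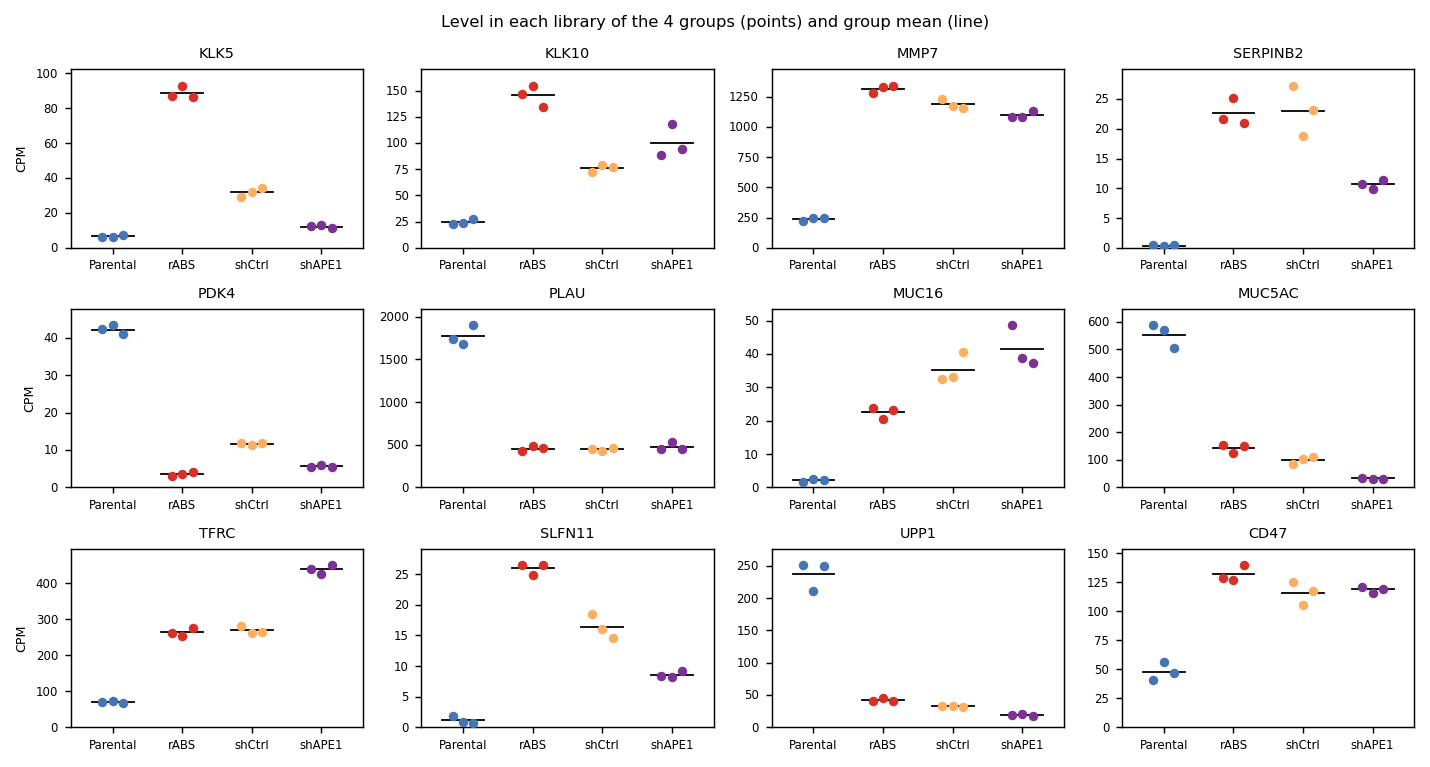
Levels in CPM are given for 12 genes in each library of Parental (blue), rABS (red), shCtrl (orange) and shAPE1 (purple), with the group mean as a line and each axis from 0. The genes were chosen after their values were seen. PLAU, MMP7 and CD47 in the transduced libraries lie near rABS, and KLK5 lies between rABS and Parental.

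The shares of genes called higher and lower varied by chromosome. On chromosome 11, 41.9% of 892 tested genes were higher and 20.4% lower, with a median log2 of 0.21. On chromosome 12 the shares were 23.1% and 40.6% of 839 genes (median -0.19), and on chromosome 2 22% and 38.6% of 1041 (median -0.18). The lowest run of 25 neighbouring protein-coding genes tested lay on chromosome 4 (37244220 to 41700044, GRCh38, from NWD2 to LIMCH1), with 20 lower, none higher and a median of -0.82. The run with the highest median was a histone cluster on chromosome 6 (26017085 to 26234933, median 0.92), and a run on chromosome 11 (65961689 to 66646469, from SART1 to RBM14-RBM4) had 21 higher, none lower and a median of 0.88. Over all runs of 25, the 1st and 99th percentiles of the median were -0.53 and 0.64. DNA copy number was not measured here.

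**Figure D5:**
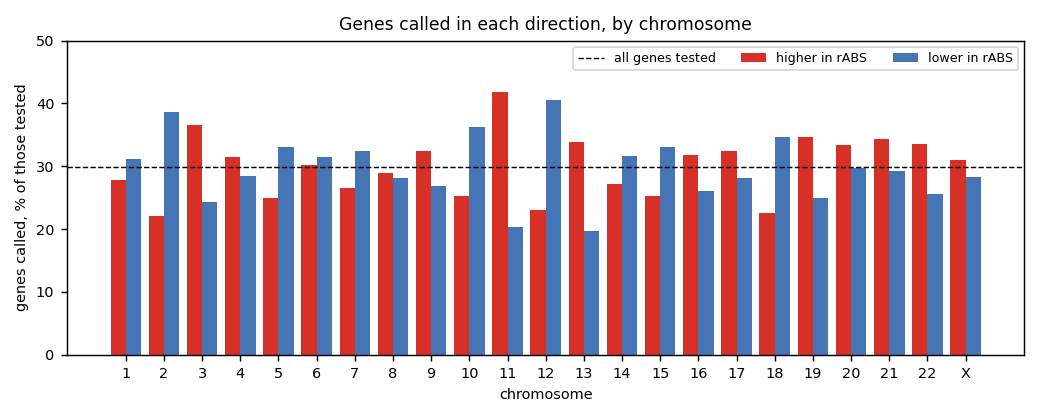
For each chromosome, bars give the percentage of tested genes called higher (red) and lower (blue) in rABS. The dashed line is the share of 29.9% over all genes tested. Chromosome 11 stands at 41.9% higher and chromosome 12 at 40.6% lower.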

How the data were processed

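The authors deposited 1 table of whole-number read counts for 57500 genes in 12 libraries. Polyadenylated RNA was isolated with oligo(dT) beads, per the labels' protocols. Trimmomatic 0.36, STAR 2.5.2b, featureCounts of Subread 1.5.2 and GRCh38 are named in the submitters' processing notes. Symbols came from a gene name table (56410 matched) and positions from GENCODE 29 (56898 placed). Genes passing filterByExpr were tested with TMM scaling and edgeR 4.0.16 quasi-likelihood in R 4.3.3 over all 12 libraries in 4 groups, as rABS minus Parental, with Benjamini-Hochberg adjustment. Levels of single genes are edgeR CPM on the scaled library size, and the cell type marker sums are CPM on library totals. Alternatives used limma 3.58.1, DESeq2 1.42.0, other scalings, filters and library subsets. The method was also run on simulated counts with a common spread and few changed genes, equally many in each direction. That simulation cannot test the scaling where most genes are called.

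The comparison, the members and the lists were chosen with earlier results of these data known. From each list, up to 6 called members with the smallest adjusted p at 5 CPM or more were named, with the largest rise and fall and central genes not called. Over all genes, the 25 largest folds each way, the 10 largest gains and losses in CPM, and genes at 0 in 1 group were named. Partners and counterparts beyond this rule (such as GOT2, SHMT2, TK2, IL1R2, KLK10 and TYRO3), the genes plotted by library and part of the promoter windows were chosen after their values were seen. The labels call the 3 libraries of a group independent biological replicates.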

Additional observations from a re-analysis of the deposited data

How the results depend on the processing

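Over the 8 planned settings (other scalings, tools and filters, the 6 libraries alone and the replicate block) and the 6 fits that leave out 1 library, the number of genes called higher lay between 4491 and 4746 and lower between 4374 and 4713, at least 2-fold higher between 1419 and 1693 and at least 2-fold lower between 1305 and 1592. The leave-one-out fits gave 4491 to 4663 higher and 4374 to 4485 lower, 1550 to 1693 at least 2-fold higher and 1428 to 1483 at least 2-fold lower. No listed gene that was called changed direction in these fits. Scaling by library totals alone, added after seeing the data, shifted the median of all genes by 0.14 and gave 5727 higher and 3782 lower (60.2% of calls higher, against 50% with TMM), 2032 at least 2-fold higher and 1125 at least 2-fold lower, and kept 90% of the calls. Under it KPNB1 went from -0.14 to 0.002. Medians changed sign to 0.068 for eIF2alpha kinases and phosphatase, 0.074 for translesion synthesis and for columnar and gut transcription factors, 0.079 for other receptor tyrosine kinases, 0.073 for interleukins, 0.075 for long non-coding RNAs and 0.070 for neural and melanocytic markers. Leaving out 1 library, the translesion median ran from -0.117 (without Parental replicate 1) to 0.073 (without Parental replicate 2), and that of neural and melanocytic markers from -0.222 (without Parental replicate 2) to 0.058 (without rABS replicate 2). The latter was -1.119 with a filter of 1 CPM in 3 libraries and -1.103 with the 6 libraries alone. The causes were not tested. With the replicate number as a block, 4624 genes were higher and 4642 lower, and 97.7% of the calls were kept. Deviations of same-numbered libraries correlated at 0.005, -0.167 and -0.077, so the numbers were not taken to pair the libraries. Few counts limit the fold of genes near 0 in Parental: leaving out 1 library, the fitted log2 change of INSR reached 4.79 and 9.44, and that of KRT6A 10.34.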
